A study of Mus musculus with 18 samples.

Results

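The let-7 family is a set of microRNAs (miRNAs, short RNAs that guide silencing of messenger RNAs) that was followed here through its guide arms, the strand of each hairpin that is loaded into the silencing complex. The members were the 5p arms named let-7a, let-7b, let-7c, let-7d, let-7e, let-7f, let-7g, let-7i and miR-98, which were picked by name as 9 of the 1412 mature miRNAs counted in mouse femoral condyle cartilage. All 9 passed the filter on low counts, as did 428 miRNAs in all. Small RNA sequencing was performed on 18 libraries of pooled cartilage from 12-week-old male C57Bl/6J mice. In loaded mice, a single 12 N load on the right knee ruptured the anterior cruciate ligament (ACL). The groups were injured right knees at day 1 (n = 3) and day 7 (n = 3), the unloaded left knees of loaded mice, called contralateral, at day 1 (n = 3) and day 7 (n = 3), and knees of naïve mice that had received no load (n = 6). The naïve libraries were labelled day 7. Loaded mice were given isoflurane and buprenorphine. The cartilage caps were separated from the bone beneath at the tidemark, the border of calcified cartilage. Shared pools of mice are not given by the labels, and naïve left and right knees were pooled apart, so naïve libraries can share mice. The study set the number of mice per pool by a partial loss of cartilage at day 7. It loaded 6 mice for day 1 and 12 for day 7, so pool size differed between these groups. The part of pool size and of cartilage loss in the results was not tested. Every n, SD, SE and p below takes the libraries as independent, although naïve libraries share mice.

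Animal let-7 miRNAs are known for promoting the differentiated state of cells and for restraining growth regulators such as Hmga2, Lin28 and Ras genes. The RNA-binding protein LIN28 blocks the maturation of most let-7 precursors and is low in most adult tissues, where let-7 guides are usually abundant. Targets are recognised mainly through the seed, bases 2 to 8 of the guide, and members of a family share that seed. In growing cartilage, let-7 is known to support the proliferation of chondrocytes.

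The mature sequences (RefSeq, mouse build GRCm38.p6) show how little separates the 9 guides, and they are printed 5′ to 3′ in lower case with the seed in capitals (the prefix mmu marks mouse miRNAs).
mmu-let-7a-5p: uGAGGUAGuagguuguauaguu
mmu-let-7b-5p: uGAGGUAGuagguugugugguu
mmu-let-7c-5p: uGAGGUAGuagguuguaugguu
mmu-let-7d-5p: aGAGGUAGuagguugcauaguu
mmu-let-7e-5p: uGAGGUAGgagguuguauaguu
mmu-let-7f-5p: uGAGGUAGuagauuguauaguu
mmu-let-7g-5p: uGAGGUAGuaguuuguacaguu
mmu-let-7i-5p: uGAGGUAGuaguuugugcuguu
mmu-miR-98-5p: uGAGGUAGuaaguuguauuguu

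All 9 members were 22 bases long and carried the same seed, and 14 of the 22 positions were the same in every member. Of the 36 pairs of members, 4 differed at 1 base and 10 at 2 bases, and the most distant pair differed at 6. Counted from the 5′ end, let-7c differed from let-7a only by A19G, let-7e by U9G and let-7f by G12A, and let-7c differed from let-7b only by G17A. With 4 changes from let-7a (G12U, A17G, U18C and A19U), let-7i lay farther from it than any other member. The authors ran their pipeline mostly at its defaults, and how many mismatches these allow is not given in the sources used here, so a misread base could move a read between members that differ at 1 base. Among the 1184 miRNAs of the table with a single RefSeq sequence, 10 held this seed in bases 2 to 8, namely the 9 members and let-7k, which had between 0 and 5 reads per library.

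The 9 guides come from 12 hairpins on 7 chromosomes of GRCm38.p6. The let-7i hairpin (chr10:122985640-122985724, minus strand) lies in an exon of the transcribed pseudogene D630033A02Rik, and the let-7e hairpin (chr17:17830352-17830444, plus strand) lies in an intron of Spaca6, 368 bp from Mir125a. On chromosome 13, let-7a-1 (chr13:48538179-48538272), let-7f-1 (chr13:48537829-48537917) and let-7d (chr13:48536012-48536114) lie in exons of the non-coding gene 6720427I07Rik on the minus strand. On chromosome 15, let-7c-2 (chr15:85706603-85706697) and let-7b (chr15:85707319-85707403) sit 622 bp apart in an exon of the non-coding gene Lncppara. The X chromosome holds let-7f-2 (chrX:151912346-151912428) and Mir98 (chrX:151913214-151913321) 786 bp apart in an intron of Huwe1. The remaining hairpins are intronic, with let-7g (chr9:106178840-106178927) in Wdr82, let-7a-2 (chr9:41536716-41536811) 5212 bp from Mir100 in a non-coding host, and let-7c-1 (chr16:77599657-77599750) 657 bp from Mir99a in Mir99ahg. For let-7a, let-7c and let-7f, each made from a pair of hairpins, the guide count cannot be divided between the loci.

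Library totals ranged from 758388 to 4088852 counts, and levels are given as CPM, the usual depth-scaled unit, here with library sizes adjusted by the TMM method. The labelled tissue was checked with miRNAs known from cartilage: miR-140-5p, miR-140-3p, miR-455-5p and miR-455-3p were present in all 18 libraries, with group means of their summed level between 7109 and 8716 CPM. Skeletal muscle miRNAs were also abundant, with group means between 103101 and 180847 CPM for 6 miRNAs led by miR-1a-3p, of which only miR-208b-3p was at 0 in any library (4 of 18). In such bulk RNA, fewer cells of a type and less RNA per cell cannot be told apart.

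The family took between 12.4% and 22.4% of all counts in a library. let-7i-5p was the highest member in all 18 libraries, held 30.8% ± 2.92 (SD, n = 18) of the family's counts and ranked between the third and the sixth of all miRNAs. let-7f-5p followed with 19.7% ± 2.33, let-7c-5p with 16.96% ± 1.90 and let-7g-5p with 15.4% ± 2.67. These 3 changed places between libraries, with let-7f above let-7c in 13 of 18 and let-7c above let-7g in 7 of 18, so that their order lay within the spread. let-7a-5p held 8.13% ± 0.681, let-7b-5p 4.66% ± 0.943 and let-7d-5p 3.11% ± 0.429, in that order in 18 of 18 libraries. let-7e-5p (0.665% ± 0.114) and miR-98-5p (0.518% ± 0.0627) were lowest, and let-7e was the higher of them in 15 libraries. All members are of 1 length, so no correction for length was made. How evenly the library preparation captured their different sequences was not tested, so these are shares of reads and not of molecules.

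**Figure D1:**
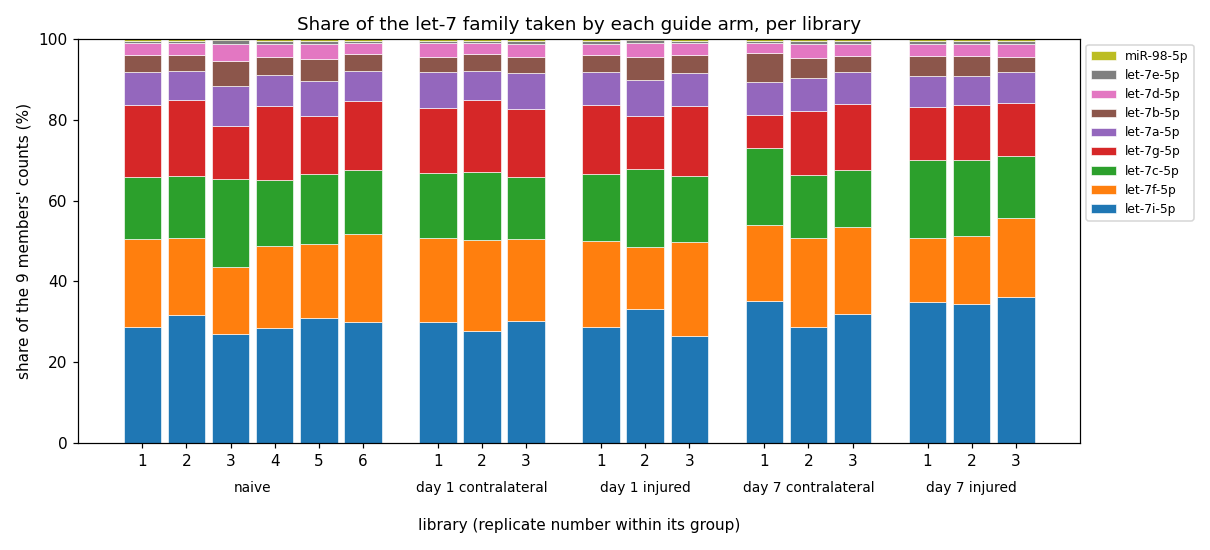
Share of the summed counts of the 9 members (y axis, percent) that each member took in each of the 18 libraries (x axis, by group and replicate number). let-7i-5p is the bottom block of every bar, between 26.6% and 36.2%, and day 7 contralateral replicate 1 has the smallest let-7g-5p block, 8.15%.

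Day 7 injured cartilage was first compared with naïve cartilage. let-7i-5p and let-7e-5p rose, and no member fell. Of the 9 members 2 were called at an adjusted p under 0.05 with limma-voom, beside 18.2% of all 428 miRNAs tested (14.5% higher and 3.74% lower). The fitted log2 fold change was above 0 in 9 of 9 members, against 50.0% of all miRNAs tested. Its median was 0.26 over the members and -0.0028 over all miRNAs, and 3 of 9 members had an unadjusted p under 0.05 (26.9% of all miRNAs). Uninjured knees also leaned above naïve cartilage, with 8 of 9 members above 0 in day 7 contralateral and 8 of 9 in day 1 contralateral libraries. Their member medians were 0.21 and 0.16, beside -0.011 and 0.076 over all miRNAs. In day 7 injured versus day 7 contralateral cartilage 6 of 9 were above 0 (median 0.14, beside -0.050 over all miRNAs).

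In naïve libraries let-7i-5p ranged from 41552 to 50790 CPM with a median of 47661. In day 7 injured libraries it measured 73439, 61622 and 75843 CPM, all above the highest naïve library. Such a rise without overlap occurred in 2 of the 9 members, let-7i and let-7e, and in 15.4% of all miRNAs. let-7i rose 1.497-fold (log2 0.58 ± 0.16 SE, limma adjusted p = 0.0118). The adjusted p rose above 0.05 when day 7 injured replicate 3 was left out (0.0740), with library totals in place of TMM (adjusted p = 0.212) and with every miRNA of at least 1 count included (adjusted p = 0.0536).

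let-7e-5p, one of the least abundant members, had the largest fitted fold change of the 9. In naïve libraries it ranged from 824 to 1374 CPM with a median of 974. In day 7 injured libraries it measured 1657, 1613 and 1633 CPM, on 1206, 3564 and 4916 reads. Those 3 libraries were the highest of all 18, the next being naïve replicate 3. let-7e rose 1.58-fold (log2 0.66 ± 0.20 SE, limma adjusted p = 0.0200). The adjusted p rose above 0.05 when day 7 injured replicate 2 (0.0589) or day 7 injured replicate 3 (0.0698) was left out, with library totals (adjusted p = 0.284) and with every miRNA of at least 1 count (adjusted p = 0.151).

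No other member passed the threshold in this fit. let-7c-5p came closest, with naïve libraries between 22450 and 33919 CPM (median 26632) and day 7 injured libraries at 40528, 33683 and 32347 CPM. Its groups overlapped at naïve replicate 3, and its log2 fold change was 0.39 ± 0.17 SE (limma adjusted p = 0.137). With voom quality weights let-7c was called (adjusted p = 0.00974). let-7g-5p moved least, with naïve libraries between 19213 and 32161 CPM (median 28208) and day 7 injured libraries at 27413, 24174 and 27300 CPM. Its log2 fold change of 0.0059 ± 0.21 SE had a 95% interval from -0.43 to 0.44, so a change of that size in either direction was not detectable here, and the sign of this value turned in 5 of 9 other settings. The remaining 5, namely let-7a, let-7b, let-7d, let-7f and miR-98, had log2 fold changes between 0.17 and 0.30 with adjusted p between 0.383 and 0.582, and their groups overlapped.

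**Figure D2:**
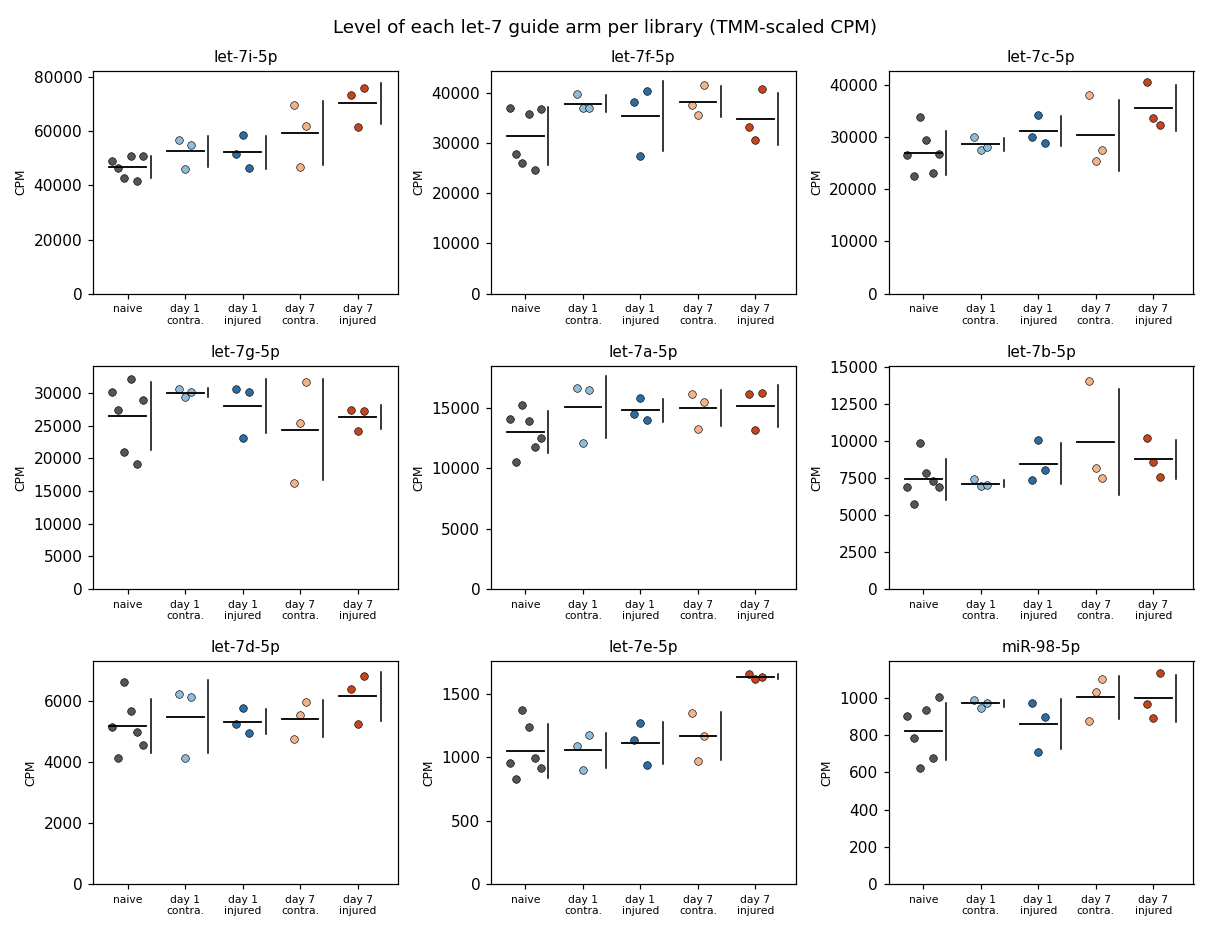
Level of each member (y axis, CPM after TMM scaling, from 0) in each library, by group (x axis, contra. for contralateral). Points are libraries, horizontal lines are means and vertical lines are ± 1 SD. The 3 day 7 injured libraries lie above every naïve library for let-7i-5p and let-7e-5p, and the groups overlap for the other 7 members.

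Summed over the 9 members, the family measured between 134138 and 177488 CPM in naïve libraries (median 163268). It measured 209873, 179686 and 209507 CPM in day 7 injured libraries, all above the naïve range. Contralateral libraries measured 198719, 161997 and 194096 CPM at day 7 and 189366, 164722 and 182103 CPM at day 1. Some uninjured knees thus also lay above the naïve range and above the lowest injured library. As a percentage of raw counts the groups overlapped, with 20.1%, 17.8% and 19.8% in day 7 injured and between 13.4% and 19.9% in naïve libraries. Its mean was 159106 ± 16590 CPM (SD, n = 6) in naïve and 199689 ± 17324 CPM (SD, n = 3) in day 7 injured cartilage, a log2 ratio of 0.33 that was 0.18 with library totals in place of TMM. As a sum over chosen members it was given no test. let-7i held 35.0%, 34.3% and 36.2% of the family's counts in day 7 injured libraries and between 27.1% and 31.7% in naïve libraries. Over the 15 libraries of the other groups together its share lay between 26.6% and 35.1%. The injured shares overlapped these at day 7 contralateral replicate 1 (35.1%).

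The shares were tested in a fit that used the summed member counts as the library size. In it 0 of the 9 members passed the threshold in day 7 injured versus naïve cartilage, against 21.96% of all miRNAs, so a change in the proportions within the family was not detectable. The log2 change of share was 0.26 ± 0.14 SE for let-7i (limma adjusted p = 0.180), 0.34 ± 0.20 for let-7e (adjusted p = 0.228) and -0.32 ± 0.20 for let-7g (adjusted p = 0.255). Against day 7 contralateral libraries the count was also 0 of 9, beside 12.38% of all miRNAs, and let-7e had the largest log2 change of share (0.39 ± 0.23 SE, limma adjusted p = 0.296). No member had an unadjusted p under 0.05 in either fit, and no count model was run on the shares.

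Ratios between members need no scaling between libraries, and let-7a-5p, which kept the fifth place in every library, served as the reference. In naïve libraries there were between 6.76 and 9.03 let-7e reads per 100 let-7a reads. Day 7 injured libraries gave 10.2, 12.2 and 10.1, and the 15 other libraries lay between 6.53 and 9.03. For let-7i the day 7 injured libraries gave between 454 and 468 reads per 100 let-7a reads, and the 15 others between 280 and 441. The other 6 members overlapped between day 7 injured and naïve libraries on this ratio. The reference was chosen after the values had been seen, so no test is given. How many of all miRNAs would separate on a ratio to let-7a was not computed, so these separations have no background.

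**Figure D3:**
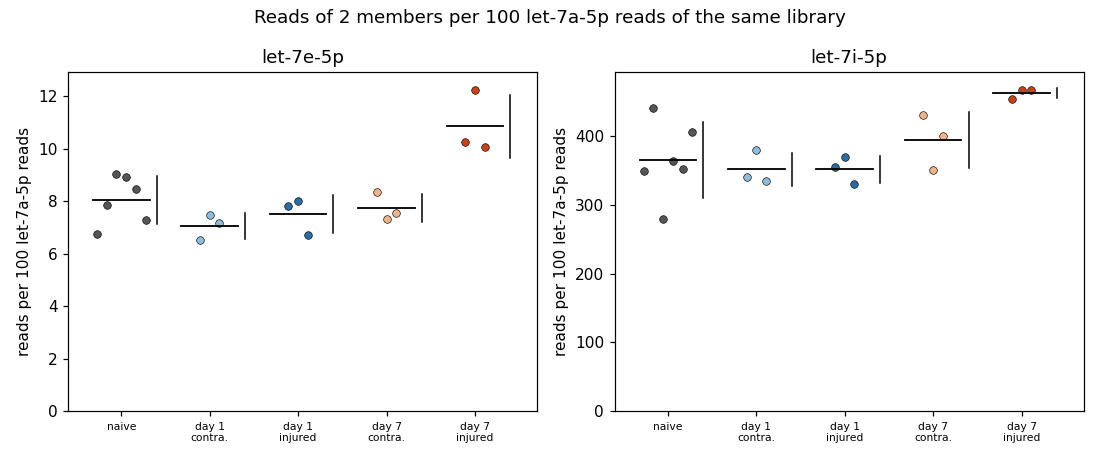
Reads of let-7e-5p (left) and let-7i-5p (right) per 100 let-7a-5p reads of the same library (y axes, from 0), by group (x axis). Points are libraries, horizontal lines are means and vertical lines ± 1 SD, and the 3 day 7 injured libraries lie above all 15 others in both panels.

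Day 7 injured knees were next compared with the contralateral knees of that day, which share the handling of loaded mice. The naïve libraries also carry the day 7 label. None of the 9 members was called by limma-voom, edgeR's quasi-likelihood test or DESeq2, beside 14.7% of all miRNAs by limma-voom. One member, let-7e, had an unadjusted p under 0.05 (1 of 9, against 23.1% of all miRNAs). Contralateral let-7e libraries measured 1352, 972 and 1167 CPM, below all 3 injured libraries (1 of 9 members, beside 17.5% of all miRNAs, was higher without overlap), and the log2 fold change was 0.51 ± 0.23 SE (limma adjusted p = 0.167). Contralateral let-7i libraries measured 69725, 46579 and 62052 CPM, which overlapped the injured libraries, and the log2 fold change was 0.27 ± 0.18 SE (limma adjusted p = 0.429). Both comparisons at day 7 use the same injured libraries. Without day 7 contralateral replicate 1, let-7e (log2 0.69, limma adjusted p = 0.0407) and let-7c were called in this comparison, and let-7c also against naïve cartilage (log2 0.42, adjusted p = 0.0147).

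Time after injury was addressed by comparing day 7 with day 1 injured libraries. let-7e measured 1134, 1267 and 939 CPM and let-7i 51455, 58641 and 46374 CPM at day 1, all below the day 7 injured libraries. The log2 fold change was 0.57 ± 0.23 SE for let-7e (limma adjusted p = 0.103) and 0.43 ± 0.18 SE for let-7i (limma adjusted p = 0.122). Thus 0 of 9 members were called by limma-voom, edgeR's quasi-likelihood test and DESeq2, beside 15.7% of all miRNAs by limma-voom, and 2 of 9 had an unadjusted p under 0.05 (27.6% of all miRNAs). The groups did not overlap for 2 of 9 members, beside 18.7% of all miRNAs that were higher in every day 7 library. Both were called with voom quality weights (adjusted p = 0.0144 for let-7e and 0.0226 for let-7i), without the muscle miRNAs, and without any of 4 single libraries (day 1 injured replicate 2, day 1 contralateral replicate 2, and day 7 contralateral replicates 1 and 2), where the adjusted p ranged from 0.0103 to 0.0485.

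**Figure D4:**
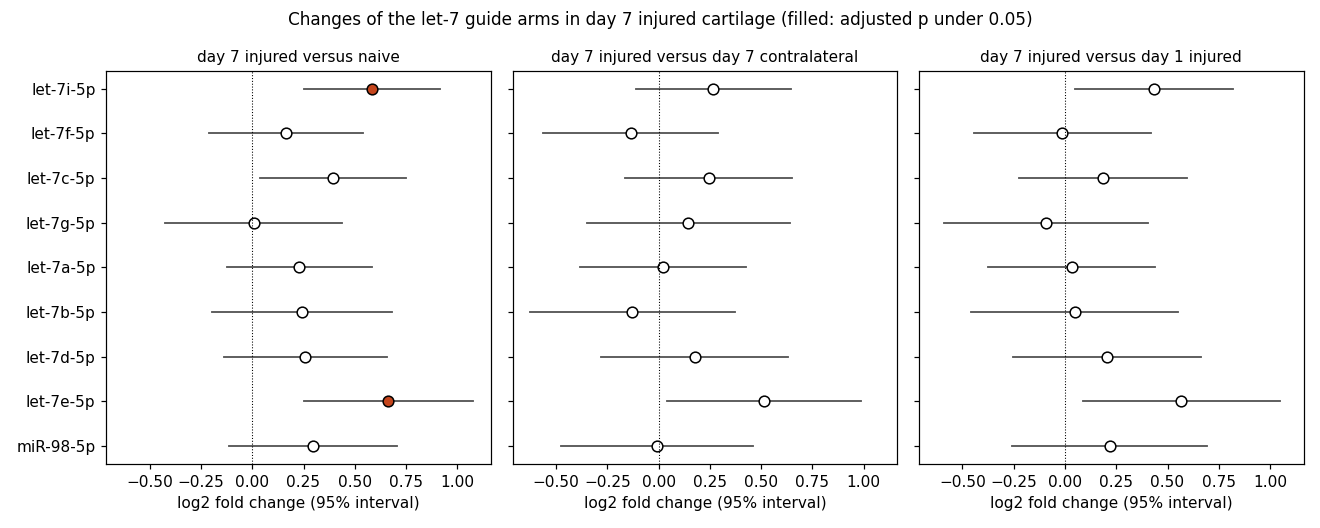
Log2 fold change of each member (x axis, with its 95% interval from limma) in day 7 injured cartilage against naïve, day 7 contralateral and day 1 injured cartilage. Filled points passed an adjusted p of 0.05, which let-7i-5p and let-7e-5p did against naïve cartilage and no member did in the other panels.

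At day 1 no member was called in injured versus contralateral or injured versus naïve cartilage, where 0 of the 428 miRNAs were called at all (0%). Log2 fold changes of the members lay between -0.18 and 0.23 against contralateral and between 0.054 and 0.21 against naïve cartilage, with no unadjusted p under 0.05. The latter were above 0 in 9 of 9 members, beside 57.9% of all miRNAs. The control comparisons gave the same count of 0 members and 0% of all miRNAs, for day 7 contralateral versus naïve, day 1 contralateral versus naïve and day 7 versus day 1 contralateral cartilage. No member had an unadjusted p under 0.05 in those 3 comparisons, and edgeR's quasi-likelihood test and DESeq2 called no member in any of these 5. Against naïve cartilage, let-7i in day 7 contralateral libraries had a log2 fold change of 0.32 ± 0.16 SE (limma adjusted p = 0.675). The difference between the injury effects of day 7 and day 1 was tested directly and passed for 0 of 9 members with all 3 tools, beside 6.78% of all miRNAs by limma-voom, with 0.43 ± 0.32 SE for let-7e (limma adjusted p = 0.603) and 0.28 ± 0.26 SE for let-7i (limma adjusted p = 0.729). No unadjusted p of a member was under 0.05 in that test.

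Of the marker lists, only the erythroid sum lay wholly outside the naïve range in day 7 injured libraries. The 4 erythroid miRNAs, miR-451a, miR-144-5p, miR-144-3p and miR-486a-5p, summed to between 3081.4 and 4150 CPM in day 7 injured and between 5986 and 7928 CPM in naïve libraries. Only miR-486a-5p among them was called (1 of 4, lower, by limma-voom, edgeR and DESeq2). The muscle list summed to between 69624 and 133933 CPM in day 7 injured and between 67508 and 198897 CPM in naïve libraries, and 0 of its 5 tested miRNAs were called by limma-voom, edgeR or DESeq2, with 1 unadjusted p under 0.05 and all 5 log2 fold changes below 0 (median -0.53). Of 5 leukocyte miRNAs 1 was called lower by limma-voom, 1 was called by edgeR and 2 by DESeq2, with the list's sum between 4391 and 4962 CPM in day 7 injured and between 2723 and 6591 CPM in naïve libraries. Neither the vascular nor the cartilage list had a called miRNA by the 3 tools (0 of 4 each, with 1 unadjusted p under 0.05 each), and the vascular sum lay between 74002 and 80724 CPM in day 7 injured and between 48221 and 83024 CPM in naïve libraries. Against day 7 contralateral libraries, where the muscle sum lay between 136696 and 249856 CPM and so above every injured library, 0 of 5 muscle miRNAs were called by limma-voom but 2 by edgeR and 2 by DESeq2. All 5 had a log2 fold change below 0, with a median of -0.82. In that comparison 1 of 4 erythroid miRNAs was called lower, and the erythroid sum (5464 to 8177 CPM in contralateral libraries) and the leukocyte sum (5097 to 11356 CPM) were also below every contralateral library in all injured ones. Against day 1 injured libraries, limma-voom called 1 of 4 cartilage miRNAs higher, and 1 of 4 erythroid and 1 of 5 leukocyte miRNAs lower. Over all 428 miRNAs, limma-voom called 18.2% against naïve, 14.7% against day 7 contralateral and 15.7% against day 1 injured libraries. Apart from miR-208b-3p, no marker was at 0 in any library. With the muscle miRNAs removed before scaling, let-7i and let-7e remained called against naïve cartilage, and 0 of 9 members were called against day 7 contralateral cartilage. Removing the muscle miRNAs changed the scaling alone, and let-7 reads from any muscle stayed in the counts. The part of muscle or of the other lists in the let-7 results was not tested.

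Members also varied among themselves from library to library, within groups as well as between them. There were between 3.76 and 4.77 let-7g-5p reads per let-7b-5p read in 10 of the 18 libraries, which came from 4 of the 5 groups and held all 3 day 1 contralateral but no day 7 injured library. That range was set after the values had been seen, and day 7 injured replicate 3 lay close below it. The ratio was lower in naïve replicates 3 (2.13) and 5 (2.63), day 1 injured replicate 2 (2.30), day 7 contralateral replicates 1 (1.15) and 2 (3.09) and day 7 injured replicates 1 (2.69), 2 (2.81) and 3 (3.60). Of these, naïve replicates 3 and 5, day 1 injured replicate 2, day 7 contralateral replicate 1 and day 7 injured replicate 1 had totals between 758388 and 1410173 counts. The only other library within that range of totals, day 1 contralateral replicate 3 with 1249037 counts, had a ratio of 4.32. Next in depth was naïve replicate 4, with 1592929 counts and a ratio of 4.10. The part of depth in this pattern was not tested.

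Day 7 contralateral replicate 1 stood apart from the other 17 libraries. let-7g took 8.15% of the family there against between 13.03% and 18.8% elsewhere, and let-7b took 7.09% against at most 6.28% elsewhere. Its let-7i-to-let-7g ratio was 4.30, where the other libraries lay between 1.53 and 2.78.

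**Figure D5:**
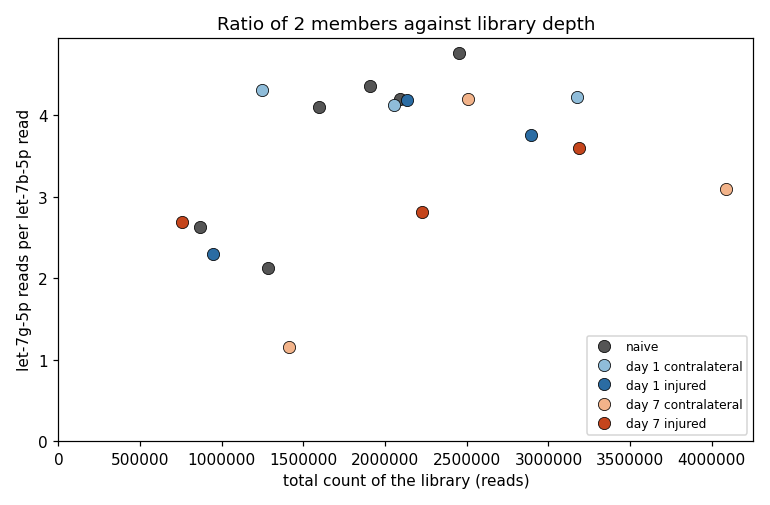
let-7g-5p reads per let-7b-5p read (y axis, from 0) against the total count of each library (x axis, reads), coloured by group. Of the 6 libraries of lowest depth 5 lie at 2.69 or lower and day 1 contralateral replicate 3 lies at 4.32.

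The passenger arms, the 3p strands that are mostly degraded, were far less abundant than the guides. Of the 12 listed, 9 passed the filter, and let-7a-1-3p and let-7c-2-3p had identical counts in every library and are 1 measurement. In day 7 injured versus naïve cartilage 1 of the 9 was called higher and none lower, beside 14.5% higher and 3.74% lower of all 428 miRNAs tested. The median log2 fold change of the 9 was 0.25. The called arm, let-7c-1-3p, is encoded on chromosome 16, and its naïve libraries lay between 5.33 and 23.9 CPM (median 11.2). It measured 20.6, 30.8 and 28.2 CPM in day 7 injured libraries, on 15, 68 and 85 reads, and overlapped only naïve replicate 5. let-7c-1-3p rose 2.45-fold (limma adjusted p = 0.00488), and it was also called against day 7 contralateral libraries (limma adjusted p = 0.0238), which measured 8.24, 12.5 and 13.3 CPM.

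The passenger arms of let-7e and let-7i did not pass the test. let-7e-3p measured 24.2 ± 7.53 CPM (SD, n = 6) in naïve and 23.8 ± 6.01 CPM (SD, n = 3) in day 7 injured cartilage, with a log2 fold change of 0.068 ± 0.28 SE (limma adjusted p = 0.890). Per 100 let-7e guide reads there were 2.35 ± 0.778 passenger reads in naïve and 1.46 ± 0.387 in day 7 injured libraries, with overlapping ranges. let-7i-3p measured 18.1 ± 4.92 and 25.7 ± 3.74 CPM in those groups (log2 0.55 ± 0.30 SE, limma adjusted p = 0.267). With 13 to 92 reads of let-7e-3p and 17 to 76 of let-7i-3p per library, these arms are measured less precisely than the guides. let-7d was the hairpin with the most passenger reads for its guide among those with a single locus, at 16.3 ± 5.31 per 100 guide reads in naïve libraries.

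The cluster partners followed here were the listed miR-99, miR-100 and miR-125 arms, of which 9 of 11 passed the filter. The list left out Mir135a-1, whose hairpin lies 24627 bp from that of let-7g. No listed arm was called in day 7 injured versus naïve cartilage by limma-voom, edgeR or DESeq2, beside 18.2% of all miRNAs by limma-voom. Of the 9, 1 had an unadjusted p under 0.05 (26.9% of all miRNAs). A log2 fold change above 0 was found in 6 of 9 (50.0% of all miRNAs), with a median of 0.23 over the 9. miR-125a-5p, whose hairpin neighbours let-7e, measured 6891 ± 1618 CPM (SD, n = 6) in naïve and 5487 ± 211.8 CPM (SD, n = 3) in day 7 injured cartilage (log2 -0.29 ± 0.21 SE, limma adjusted p = 0.419). miR-99b-5p, the other guide of the let-7e cluster, had a log2 fold change of 0.23 ± 0.26 SE (limma adjusted p = 0.599). Neither neighbour of let-7e thus passed the test where let-7e did, and the difference between their changes was not tested. miR-125b-1-3p had the lowest adjusted p of the list (0.0824), with all 3 day 7 injured libraries above the naïve ones.

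The miRNAs whose log2 CPM moved most like the family's summed level over the 18 libraries were let-7j (Pearson r = 0.75), miR-450a-5p (0.66), miR-379-5p (0.58), miR-3074-2-3p (0.54) and miR-27b-3p (0.53). The search covered 165 miRNAs that averaged 100 CPM or more, and these correlations are a description over libraries that share their scaling and their groups. For let-7e-5p the 5 closest were miR-127-3p (0.84), miR-541-5p (0.79), miR-300-3p (0.77), miR-382-5p (0.74) and miR-152-5p (0.74). These 5 had log2 fold changes between 1.05 and 2.04 in day 7 injured versus naïve cartilage, all above that of let-7e.

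The miRNA most like the family, let-7j, was not among the 9 names chosen, and its sequence is shown beside that of let-7i, the member it resembles.
mmu-let-7i-5p: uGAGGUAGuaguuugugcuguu
mmu-let-7j: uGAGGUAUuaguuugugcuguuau

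Over the first 22 bases let-7j differed from let-7i only by G8U, the last base of the seed, and it ended 2 bases later. let-7j measured 10896 ± 1450 CPM (SD, n = 6) in naïve and 13788 ± 1490 CPM (SD, n = 3) in day 7 injured libraries, above let-7b, let-7d, let-7e and miR-98. Its log2 fold change was 0.34 ± 0.18 SE (limma adjusted p = 0.267). Per 100 let-7i reads there were between 17.01 and 25.8 let-7j reads in the 18 libraries. let-7j took 23.2 ± 1.51 per 100 in naïve and 19.7 ± 2.23 in day 7 injured libraries, and the groups did not overlap. The uninjured day 1 contralateral libraries, between 19.8 and 20.3 per 100, also all lay below the naïve libraries, the lowest of which had 21.7. Whether reads of let-7i were counted under let-7j was not tested.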

How the data were processed

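Small RNA was sequenced from 18 libraries of pooled cartilage in 5 groups, taken from the treatment label. The authors trimmed reads with Trim Galore 0.6.6, aligned them to miRBase mature sequences with Bowtie 1.3.0 and counted them with SAMtools 1.12 in an nf-core small RNA pipeline (1.1.0) set to GRCm38 and otherwise mostly at its defaults, per the study's methods and the submitters' processing notes. The deposited values are raw counts per miRNA. How reads with several matches were counted is not given in the sources used here. Table rows and sample titles carry different prefixes and were matched by their shared library number alone.

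Counts were analysed in R 4.3.3. filterByExpr of edgeR 4.0.16 (minimum count 10, minimum total 15) kept 428 of 1412 miRNAs. Library sizes were TMM-scaled, and limma 3.58.1 (voom) estimated a mean for each group over all 18 libraries, with 2-sided tests, Benjamini-Hochberg adjustment over all 428 in each of 9 comparisons and a threshold of 0.05. For shares, the summed counts of the members replaced the library size. The study accounted for shared pools of mice, which the labels do not give, so every library was treated as independent here. The tests set differences between groups against the spread between libraries, which may in part be technical. No replicates were near-identical. Depth was 758388 to 4088852 counts per library, and PCR copies are not independent molecules.

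The text names all members, the passenger arms of their hairpins, their cluster partners, and the 5 miRNAs with the highest correlation of log2 CPM (prior count 2) with the family and with let-7e among those averaging 100 CPM or more. Members, lists and tests were chosen with earlier results of these data known. Alternatives were DESeq2 size factors, library totals, 2 other filters, edgeR's quasi-likelihood test, DESeq2 1.42.0, quality weights, the compared groups alone, removal of muscle miRNAs, other reference sums for the shares, and leaving out each library. The procedure was tested on simulated data. Sequences came from RefSeq tables (9 of 9 members matched) and host genes from the GENCODE annotation of GRCm38.p6. Figures were drawn with matplotlib 3.10.9.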

Additional observations from a re-analysis of the deposited data

Results flagged for a closer look

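Over the 6 naïve libraries, 23 sets of values (levels and shares of the 9 members, the family's level and percentage of counts, and 3 ratios) were searched for a library far from the rest. In 1 set such a library was found. let-7c-5p took 21.6% of the family's counts in naïve replicate 3, where the other 5 naïve libraries lay between 15.4% and 17.2%. Chance flags about 1 in 20 such sets. The level of let-7c in that library (33919 CPM) was also the highest naïve value, and it lay above 2 of the 3 day 7 injured libraries.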

How the results depend on the processing

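The calls of let-7i and let-7e against naïve cartilage held under 7 of 9 alternatives each. With library totals in place of TMM, or with every miRNA of at least 1 count, 0 of 9 members were called in place of 2. With totals, the median log2 fold change of all 428 miRNAs fell to -0.13, and let-7i (0.58) and let-7e (0.66) lay as far above it as with TMM, while the family's log2 ratio was 0.18 against 0.33. With every miRNA of at least 1 count the median was 0.12, and let-7i lay 0.43 and let-7e 0.51 above it, less than the 0.58 and 0.67 of the reported fit. With voom quality weights 3 were called, let-7c being the third. Leaving out single libraries gave between 0 and 3 members called against naïve cartilage (0 without day 7 injured replicate 3, 1 without replicate 2), between 0 and 2 against day 7 contralateral cartilage, and between 0 and 2 against day 1 injured cartilage. In that last comparison 2 members were called with voom quality weights and 2 without the muscle miRNAs. The log2 fold change of let-7g against naïve cartilage turned below 0 with library totals (-0.13), every miRNA of at least 1 count (-0.034), edgeR's quasi-likelihood test (-0.011), DESeq2 (-0.0068) and quality weights (-0.14), and it lay between -0.034 and 0.11 with single libraries left out, below 0 without naïve replicate 3 (-0.021), naïve replicate 5 or day 7 injured replicate 3 (-0.0078). The causes were not tested. The member counts of the other 6 comparisons and both share counts stayed at 0 in every alternative. No paired analysis was possible because replicate numbers were given in accession order and the labels do not tie libraries of different knees to a pool of mice.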
